A study of Homo sapiens with 6 samples.

Results

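Transcripts of 47 genes that build the junctions between epithelial cells were followed in lenvatinib-resistant and lenvatinib-sensitive hepatocellular carcinoma cells. The genes were chosen by name from 24432 gene symbols measured, as 11 genes of adherens junctions, 20 of tight junctions, 13 of desmosomes and 3 of gap junctions, and all 47 were present. The resistant group held 3 libraries of cells labelled PLC/PRF/5, a long-established human line of hepatocellular carcinoma, with the genotype label lenvatinib resistant and the treatment label lenvatinib. Those cells had been selected in lenvatinib, an oral inhibitor of VEGF and FGF receptor kinases, given at 20 µmol/L at the start and raised at each passage in steps of 0.5 mmol/L to a final 40 mmol/L, so the labels change unit between the start and the steps. Their medium was changed every 48 h and they were passaged at 90% confluence. The sensitive group held 3 libraries of the same labelled line with the genotype label WT and the treatment label control. Both groups grew in medium with 10% fetal bovine serum, and 1.5 µg of total RNA went into each library. The labels describe 1 selection scheme, so drug exposure and resistance cannot be told apart. They do not state that the libraries of a group came from separate cultures. The p-values therefore cover only the variation among these libraries, and that may be technical.

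Epithelial cells are joined by 4 kinds of contact. Adherens junctions couple cadherins through catenins to actin, tight junctions seal the space between cells with claudins and MARVEL proteins held by scaffold proteins, desmosomes couple desmogleins and desmocollins through plaque proteins to keratin filaments, and gap junctions are channels of connexins that let small molecules pass from cell to cell. In liver, hepatocytes use tight junctions to close off the bile canaliculi and are coupled mainly by connexin 32, the product of GJB1.

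Values are FPKM, fragments scaled to transcript length and library size, so that levels of different genes in a library can be set side by side. Summed FPKM was 366048 to 377923 in resistant and 410492 to 475088 in sensitive libraries, with 10391 to 10916 genes at 1 FPKM or more in a library. Mitochondrial mRNAs made up 7.18% to 7.84% of summed FPKM in resistant and 16.3% to 17.4% in sensitive libraries. The labelled cell type was checked with 21 hepatocyte markers, of which 5 reached 1 FPKM in every resistant library and 19 in every sensitive library. Their summed level was 20.8, 55.6 and 21.9 FPKM in resistant libraries 1 to 3, against 5704, 5713 and 6069.8 FPKM in sensitive libraries 1 to 3. ALB, which encodes albumin, was listed at 0, 0.0222 and 0 FPKM in resistant and at 4.02, 3.61 and 2.01 FPKM in sensitive libraries. Transcripts that define hepatocytes were thus mostly at or near 0 in the resistant libraries, and whether both groups came from 1 line was not tested. Pearson's r of log2(FPKM + 1) was 0.994 to 0.996 between resistant libraries, 0.995 between sensitive libraries 1 and 2, 0.952 and 0.964 between sensitive library 3 and those, and 0.680 to 0.706 between groups. Sensitive library 3 stood apart from its group, and resistant library 2 held the most hepatocyte transcript of its group, so junction genes whose call changes without either are given both ways.

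Of the 47 junction genes, 33 reached 1 FPKM in at least 3 of the 6 libraries and were tested with limma on log2(FPKM + 1). In resistant cells 14 rose, 9 fell and 10 did not pass an adjusted p of 0.05 (Benjamini-Hochberg over all 11694 genes tested). These 23 calls are 69.7% of the tested junction genes, and 67.7% of all tested genes were called, 35.2% higher and 32.5% lower, so the share of junction genes called was near that of all genes. Groups did not overlap for 25 of the 33, and for 74.4% of all tested genes. A call with at least a 2-fold change was made for 19 of the 33, and for 38.2% of all tested genes. The median log2 fold change was 0.37 over the tested junction genes and 0.08 over all tested genes, and the median absolute log2 fold change was 1.38 over the tested junction genes and 0.75 over all tested genes. Of the 33, 5 passed the filter through resistant libraries alone (CDH13, DSC2, DSC3, PKP3 and EVPL). Another 5 passed through sensitive libraries alone (CDH1, CLDN3, MARVELD3, GJA1 and GJB1). Those genes had to differ and their counts support nothing. They are also among the 2-fold calls and enter the medians. The junction genes were, besides, chosen with earlier results of these data known. Shares and medians set beside those of all genes are therefore descriptions only. Fold changes are differences of log2(FPKM + 1), resistant minus sensitive, and understate the change of low genes.

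**Figure D1:**
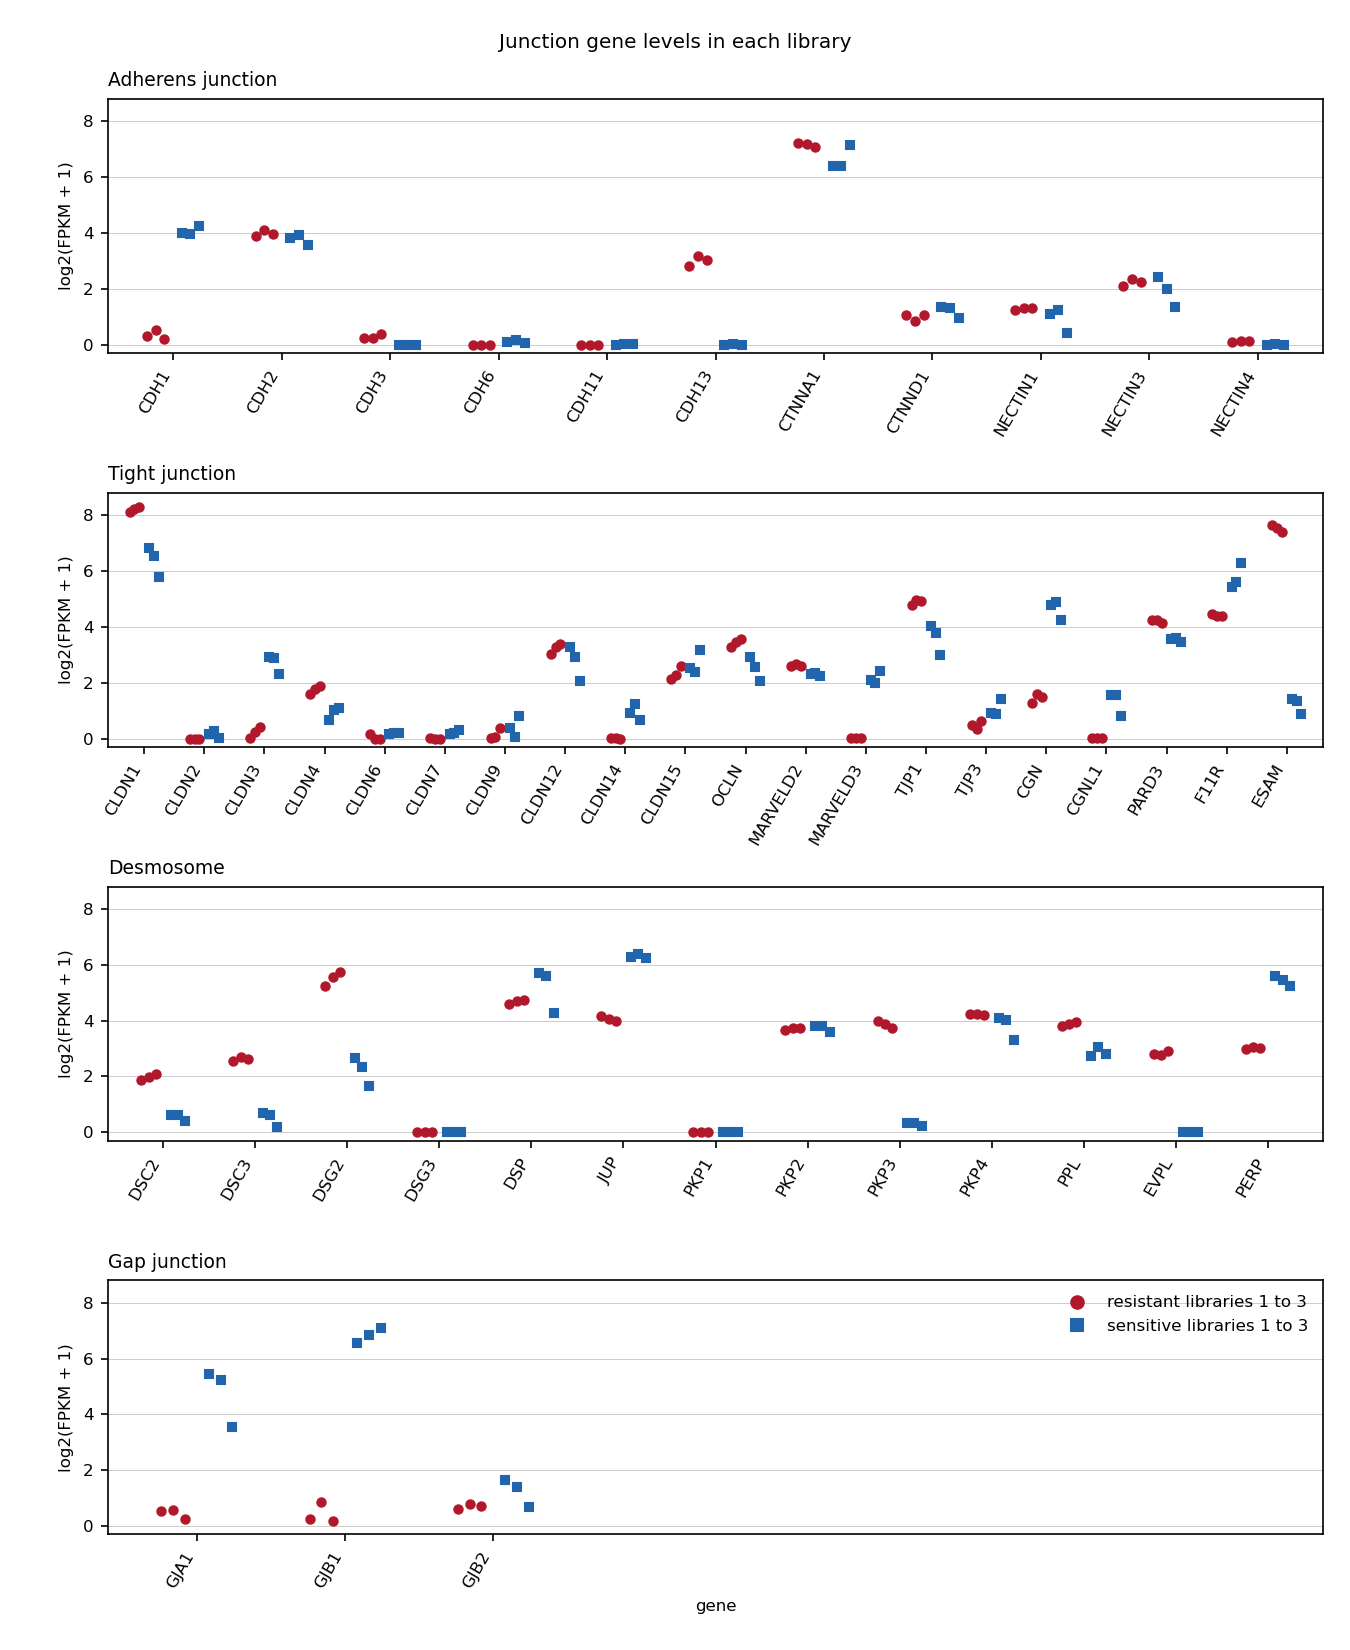
Level of each of the 47 junction genes as log2(FPKM + 1) (vertical axis) in resistant libraries 1 to 3 (red circles) and sensitive libraries 1 to 3 (blue squares), by junction type. CDH1, CGN, JUP, PERP, GJA1 and GJB1 lie lower in resistant libraries, and CDH13, ESAM, DSG2, PKP3 and EVPL lie higher.

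**Figure D2:**
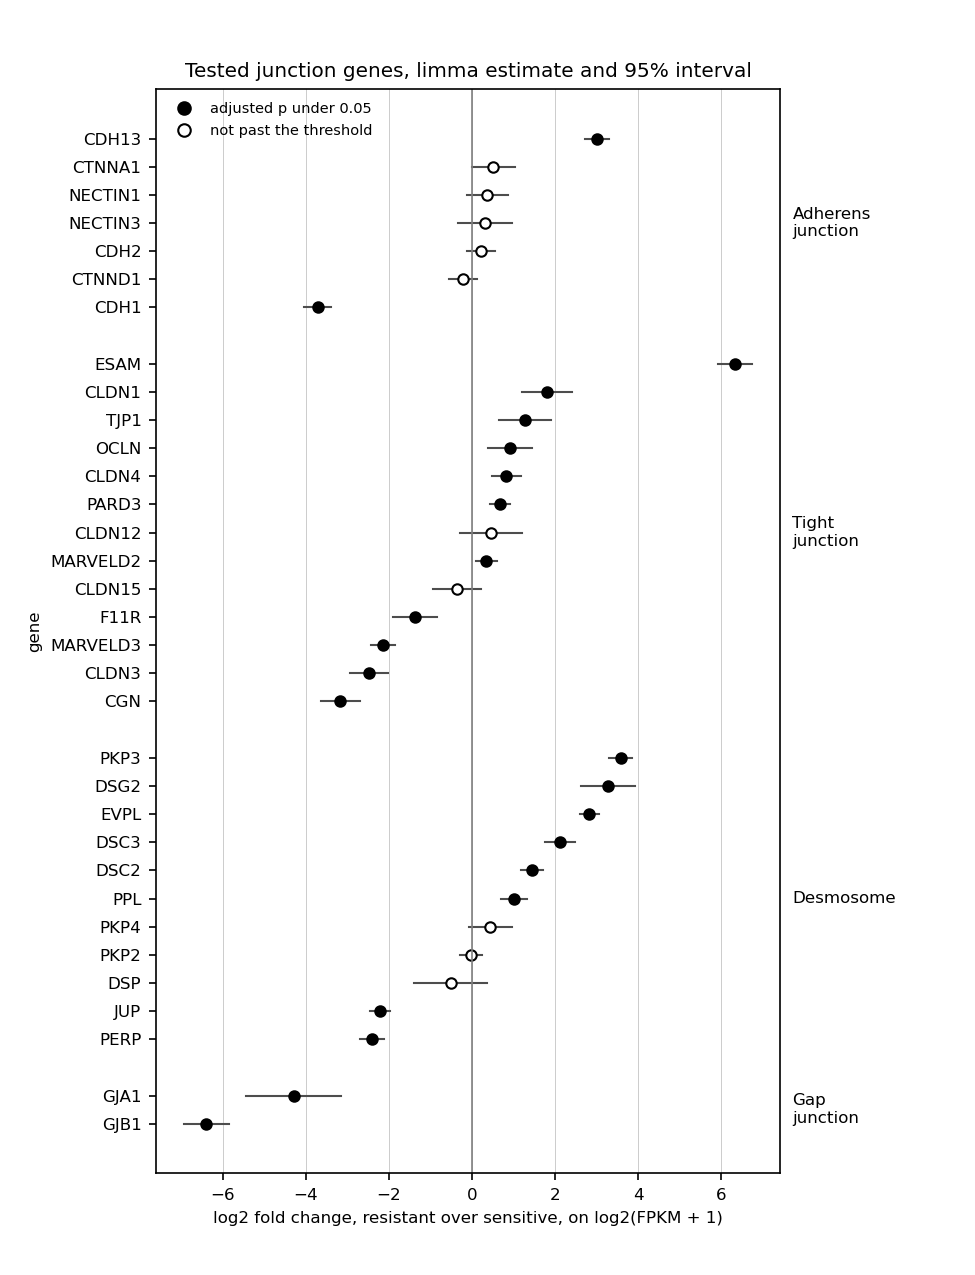
Log2 fold change of the 33 tested junction genes (horizontal axis, resistant over sensitive on log2(FPKM + 1)) with the 95% interval from limma, by junction type. Filled circles passed an adjusted p of 0.05 and open circles did not, and estimates run from -6.39 for GJB1 to 6.33 for ESAM.

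In adherens junctions 2 of the 3 tested cadherins changed, and the catenins and nectins did not pass the test. The E-cadherin transcript fell in resistant cells, that of T-cadherin rose, and that of N-cadherin did not pass. Of the 11 genes, 7 were tested, 1 rose, 1 fell and 5 did not pass. The called share was 28.6%, against 67.7% of all tested genes. Both called genes had passed the filter through 1 group alone. CDH1 encodes E-cadherin, the main cadherin of epithelia. It was at 0.236, 0.437 and 0.156 FPKM in resistant libraries 1 to 3, against 14.8, 14.7 and 17.9 FPKM in sensitive libraries 1 to 3. All 3 resistant libraries lay far below the sensitive ones, and CDH1 fell by 3.72 on the log2 scale (SE 0.141, adjusted p = 1.44e-06). In bulk RNA, fewer cells with a transcript and less transcript per cell cannot be told apart, here and in all results that follow. CDH13 encodes T-cadherin, which is held to the membrane by a lipid anchor and lacks the cytoplasmic tail that binds catenins. It was at 6.07, 8.02 and 7.29 FPKM in resistant libraries and was listed at 0, 0.0197 and 0 FPKM in sensitive libraries. All 3 resistant libraries lay far above the sensitive ones, and the log2 fold change was 3.01 (SE 0.118, adjusted p = 1.71e-06).

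CDH2 encodes N-cadherin, which hepatocytes hold beside E-cadherin. It was at 13.7, 16.4 and 14.5 FPKM in resistant libraries and 13.1, 14.3 and 10.8 FPKM in sensitive libraries. The groups overlapped, and the log2 fold change was 0.21 with a 95% interval of -0.12 to 0.54 (adjusted p = 0.21). The remaining cadherins were low. CDH3, which encodes P-cadherin and lies next to CDH1 on chromosome 16, was at 0.184, 0.178 and 0.315 FPKM in resistant libraries and listed at 0 in every sensitive library. CDH6 and CDH11, the K- and OB-cadherin genes, were listed at 0 in every resistant library, against 0.0462 to 0.114 FPKM and 0.00335 to 0.0205 FPKM in sensitive libraries. None of these 3 reached the filter.

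Summed over the 6 cadherin genes, the level was 22.5 ± 2.45 FPKM in resistant and 28.6 ± 0.529 FPKM in sensitive libraries (SD, n = 3 each). The makeup of that sum differed more than its size. CDH1 was 1.20% ± 0.523 of it in resistant and 55.2% ± 6.20 in sensitive libraries. CDH13 was 31.6% ± 1.38 of it in resistant and 0.0225% ± 0.0390 in sensitive libraries, and CDH2 was 66.2% ± 1.46 in resistant and 44.5% ± 6.09 in sensitive libraries.

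The catenins tie cadherins to actin. CTNNA1, the alpha-catenin that links beta-catenin to actin and the most abundant of the 11 genes, was at 149.5, 143.6 and 132.8 FPKM in resistant libraries, against 82.8, 83.1 and 141.1 FPKM in sensitive libraries. Sensitive library 3 lay among the resistant values and the other 2 lay below all of them. The log2 fold change was 0.51 (SE 0.215, adjusted p = 0.0698), and without sensitive library 3 it was 0.77 with an adjusted p of 1.9e-05, which passed (0.201 at most over 16 alternatives). CTNND1, the p120-catenin gene that steadies cadherins at the membrane, was at 0.788 to 1.09 FPKM in resistant and 0.921 to 1.56 FPKM in sensitive libraries, with a log2 fold change of -0.22 (adjusted p = 0.204), and without sensitive library 3 it was -0.35 (adjusted p = 0.0117, and 0.465 at most over 15 alternatives). Nectins are immunoglobulin-type adhesion proteins that help to start these junctions. NECTIN1 was at 1.36 to 1.49 FPKM in resistant and 0.337 to 1.35 FPKM in sensitive libraries, with a log2 fold change of 0.37 (adjusted p = 0.156) although the groups did not overlap. NECTIN3 was at 3.25 to 4.15 FPKM in resistant and 1.55 to 4.42 FPKM in sensitive libraries, with a log2 fold change of 0.31 (adjusted p = 0.338). NECTIN4 stayed under the filter at 0.0650 to 0.0932 FPKM in resistant and 0 to 0.00705 FPKM in sensitive libraries.

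In tight junctions the changes ran in both directions within each kind of protein. Claudin-1, occludin and ZO-1 transcripts rose in resistant cells while claudin-3, MARVELD3 and cingulin transcripts fell. ESAM, an adhesion protein best known from endothelium, rose most of the 13 chosen genes tested. Of the 20 genes, 13 were tested, 7 rose, 4 fell and 2 did not pass. The called share was 84.6%, against 67.7% of all tested genes. CLDN3 and MARVELD3 had passed the filter through sensitive libraries alone.

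CLDN1 encodes claudin-1, a sealing claudin and a coreceptor for hepatitis C virus on hepatocytes. It was the most abundant junction gene in the resistant libraries, at 276.7, 293.9 and 311.4 FPKM, against 111.9, 92.8 and 54.8 FPKM in sensitive libraries. The groups were well apart, with sensitive library 3 lowest, and the log2 fold change was 1.81 (SE 0.251, adjusted p = 0.000635). CLDN4, a sealing claudin of many simple epithelia, was at 2.03, 2.44 and 2.68 FPKM in resistant libraries, against 0.580, 1.04 and 1.13 FPKM in sensitive libraries, with a log2 fold change of 0.83 (SE 0.147, adjusted p = 0.00213). Its neighbour CLDN3, a claudin found in hepatocytes and other simple epithelia, went the other way. It was at 0.02, 0.179 and 0.318 FPKM in resistant libraries, against 6.61, 6.38 and 3.97 FPKM in sensitive libraries, and fell by 2.49 on the log2 scale (SE 0.194, adjusted p = 3.66e-05). CLDN3 and CLDN4 thus lay on opposite sides of the comparison although no protein-coding gene lies between them on chromosome 7 in RefSeq.

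The promoter windows of this adjacent pair are shown because the genes changed in opposite directions. Each is the RefSeq window of 250 bases before to 50 after the gene's start in GRCh38.p14, 5′ to 3′ on the gene's strand, at chr7:73770221-73770520 on the minus strand for CLDN3 and chr7:73830746-73831045 on the plus strand for CLDN4. Capitals mark matches on either strand to GGGCGG (the GC box bound by SP1), CACCTG (an E-box bound by SNAI and ZEB repressors), TGANTCA (the AP-1 site) and CATTCC (the TEAD site).
CLDN3: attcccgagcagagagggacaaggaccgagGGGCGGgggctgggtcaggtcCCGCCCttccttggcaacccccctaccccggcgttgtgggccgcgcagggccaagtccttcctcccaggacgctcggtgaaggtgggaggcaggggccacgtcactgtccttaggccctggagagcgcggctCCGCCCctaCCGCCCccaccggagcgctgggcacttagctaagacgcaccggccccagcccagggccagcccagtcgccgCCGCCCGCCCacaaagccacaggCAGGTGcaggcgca
CLDN4: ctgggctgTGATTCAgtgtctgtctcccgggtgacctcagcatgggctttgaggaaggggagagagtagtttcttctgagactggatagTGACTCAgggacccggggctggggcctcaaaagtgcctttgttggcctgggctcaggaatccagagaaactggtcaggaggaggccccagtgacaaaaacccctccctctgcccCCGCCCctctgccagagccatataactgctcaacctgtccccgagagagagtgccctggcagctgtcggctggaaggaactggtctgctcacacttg
The CLDN3 window holds 6 GC boxes, of which the last pair overlap, and 1 E-box. The CLDN4 window holds 2 AP-1 matches and 1 GC box. Over the 27305 genes with a window, 1 window per symbol, GGGCGG is found in 44.6%, CACCTG in 20.6%, CATTCC in 14.0% and TGANTCA in 7.76%. Of the 31 junction genes with a window, 23 hold GGGCGG, 10 CACCTG, 5 TGANTCA and 2 CATTCC. Among those windows CACCTG is in 4 of the 8 genes that rose and 2 of the 6 that fell, and TGANTCA is in 1 of the 8 that rose and 2 of the 6 that fell. These matches describe the letters of the windows and nothing of what binds there.

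The other claudins did not pass or were too low to test. CLDN12, an atypical claudin, was at 7.07 to 9.36 FPKM in resistant and 3.17 to 8.79 FPKM in sensitive libraries, with a log2 fold change of 0.46 (adjusted p = 0.228). CLDN15, a cation pore claudin of the gut, was at 3.37 to 5.12 FPKM in resistant and 4.23 to 8.08 FPKM in sensitive libraries, with a log2 fold change of -0.36 (adjusted p = 0.224). CLDN14, a cation barrier claudin expressed in liver, was at 0.00985, 0.00980 and 0 FPKM in resistant libraries, against 0.885, 1.33 and 0.597 FPKM in sensitive libraries, and fell short of the filter. Its groups did not overlap. CLDN2, a pore-forming claudin, was listed at 0 in every resistant library and was at 0.0151 to 0.197 FPKM in sensitive libraries. CLDN6, CLDN7 and CLDN9 were at 0.733 FPKM or less in every library. The 10 claudins summed to 309 ± 19.9 FPKM in resistant and 107 ± 31.1 FPKM in sensitive libraries (SD, n = 3 each). CLDN1 made up 95.1% ± 0.509 of that sum in resistant and 80.2% ± 4.42 in sensitive libraries. The order of these shares depends on the genes summed. Over the 17 claudins in the files, with CLDN11 among them, CLDN1 was 63.8% ± 2.10 in resistant and 75.9% ± 6.37 in sensitive libraries.

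**Figure D3:**
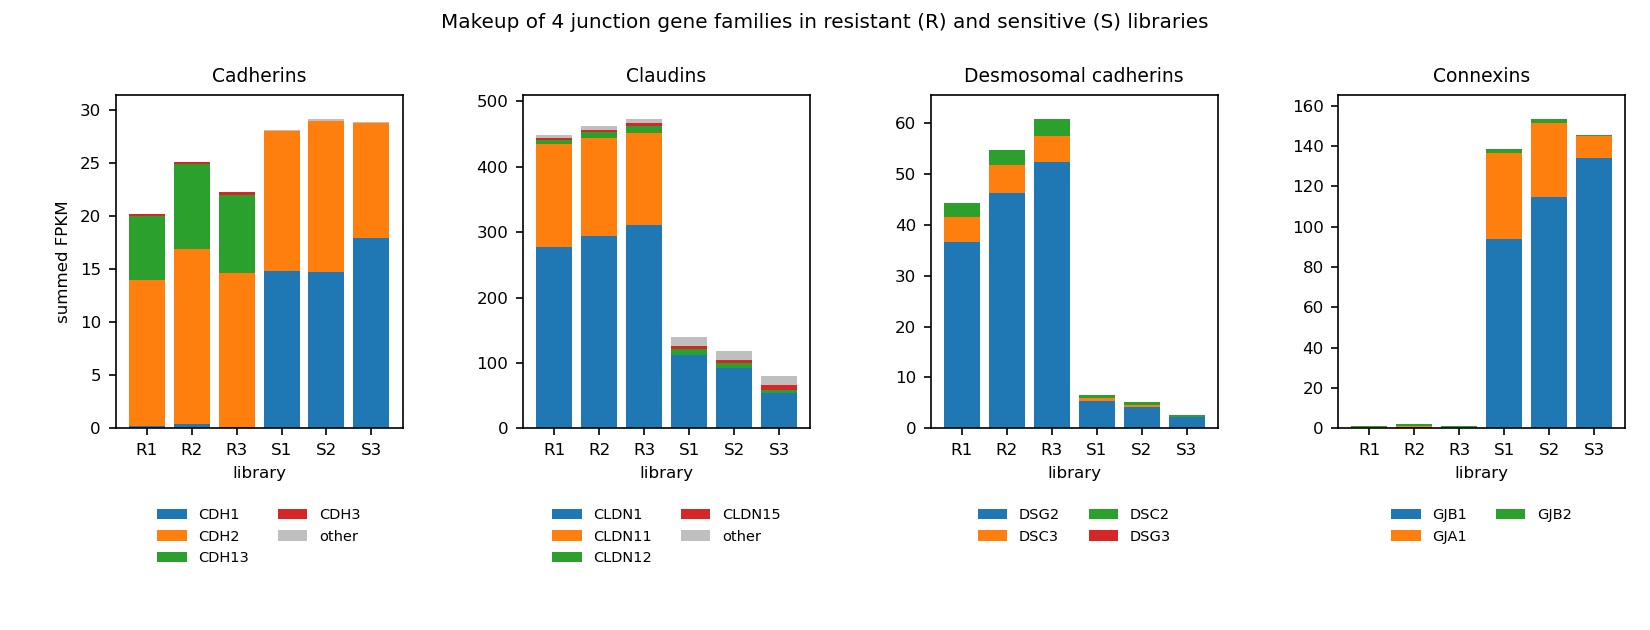
Summed FPKM (vertical axis) of the 6 cadherins, the 17 claudins in the files, the 4 desmosomal cadherins and the 3 connexins GJB1, GJA1 and GJB2, in resistant libraries R1 to R3 and sensitive libraries S1 to S3, with coloured parts for single genes. CDH13 and CLDN11 are large parts of the resistant bars and CDH1 of the sensitive bars. The bars of the 3 connexins stand at 0.973 to 2.07 FPKM in resistant libraries, against 139 to 153 FPKM in sensitive libraries. Over all 14 connexin genes in the files, which are not drawn, the mean sum was 54.8 FPKM in resistant and 151 FPKM in sensitive libraries.

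The MARVEL proteins are tight junction proteins with 4 membrane spans, of which occludin was the first found. OCLN, the occludin gene, was at 8.76, 9.95 and 10.8 FPKM in resistant libraries, against 6.61, 4.87 and 3.22 FPKM in sensitive libraries, with a log2 fold change of 0.91 (SE 0.224, adjusted p = 0.00948). MARVELD2, its neighbour on chromosome 5, encodes tricellulin, which closes the corners where 3 cells meet. It was at 5.06, 5.40 and 5.08 FPKM in resistant libraries, against 3.92, 4.03 and 3.70 FPKM in sensitive libraries. Its log2 fold change of 0.34 (SE 0.107, adjusted p = 0.0266) was the smallest called among the junction genes, and the call was lost without any 1 library other than sensitive library 3 (adjusted p = 0.0558 to 0.116) and after quantile normalization (adjusted p = 0.107), within a range of 0.0132 to 0.116 over 15 alternatives. MARVELD3 went the other way, at 0.0180, 0.00896 and 0.00895 FPKM in resistant libraries and 3.29, 3.00 and 4.30 FPKM in sensitive libraries, and fell by 2.15 on the log2 scale (SE 0.121, adjusted p = 7.82e-06). No library of one group came near the other group for MARVELD3.

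Scaffold and polarity proteins sit under the membrane. TJP1 encodes ZO-1, which binds claudins and actin, and was at 26.4, 29.95 and 29.3 FPKM in resistant libraries, against 15.5, 12.8 and 6.95 FPKM in sensitive libraries, with a log2 fold change of 1.27 (SE 0.264, adjusted p = 0.00447). PARD3, a polarity protein that helps to place the junction, was at 17.9, 18.0 and 16.5 FPKM in resistant libraries, against 10.8, 11.1 and 9.95 FPKM in sensitive libraries, with a log2 fold change of 0.67 (SE 0.105, adjusted p = 0.00112). The groups did not overlap for either gene. CGN encodes cingulin, which links ZO-1 to the cytoskeleton. It was at 1.43, 2.01 and 1.84 FPKM in resistant libraries, against 26.5, 28.4 and 18.0 FPKM in sensitive libraries, and fell by 3.18 on the log2 scale (SE 0.196, adjusted p = 1.19e-05). Its relative CGNL1, the paracingulin gene, was at 0.00290, 0.0115 and 0.00575 FPKM in resistant libraries and 1.93, 1.94 and 0.740 FPKM in sensitive libraries, just short of the filter. TJP3, the ZO-3 gene, was not tested and was at 0.258 to 0.562 FPKM in resistant and 0.852 to 1.64 FPKM in sensitive libraries.

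The immunoglobulin-type proteins of the tight junction moved in opposite directions. ESAM was at 200.1, 185.0 and 166.4 FPKM in resistant libraries, against 1.64, 1.51 and 0.818 FPKM in sensitive libraries. Its mean was 184 ± 16.9 FPKM in resistant and 1.32 ± 0.443 FPKM in sensitive libraries (SD, n = 3 each), a 139-fold difference of means, and its log2 fold change was 6.33 (SE 0.169, adjusted p = 4.78e-07). That was the largest rise among the 33 chosen junction genes tested, and CLDN11, of a further list given below, rose more. Of 9 endothelial markers, 7 were in the files and summed to 0.200 to 0.348 FPKM in resistant and 0.12 to 0.185 FPKM in sensitive libraries, with KDR and ERG at 0 in every library and none at 1 FPKM in every library of a group. F11R encodes JAM-A, which has a part in tight junction assembly. It was at 21.1, 20.1 and 19.7 FPKM in resistant libraries, against 42.4, 48.2 and 77.5 FPKM in sensitive libraries, and fell by 1.38 on the log2 scale (SE 0.219, adjusted p = 0.00128). Sensitive library 3 was the highest of its group for F11R and the lowest for ESAM.

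In desmosomes all 3 tested cadherins rose in resistant cells, together with plakophilin-3, envoplakin and periplakin, while plakoglobin and PERP fell. Desmoplakin and plakophilins 2 and 4 did not pass. Of the 13 genes, 11 were tested, 6 rose, 2 fell and 3 did not pass. The called share was 72.7%, against 67.7% of all tested genes. Of the 6 that rose, 4 had passed the filter through resistant libraries alone.

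DSG2 encodes desmoglein-2, the desmoglein of simple epithelia. It was at 36.6, 46.2 and 52.3 FPKM in resistant libraries, against 5.37, 4.12 and 2.16 FPKM in sensitive libraries. The groups were far apart, at 45.0 ± 7.89 FPKM in resistant and 3.88 ± 1.62 FPKM in sensitive libraries (SD, n = 3 each), and the log2 fold change was 3.28 (SE 0.274, adjusted p = 5.15e-05). The desmocollins pair with desmogleins across the gap between cells. DSC2 was at 2.70, 2.98 and 3.24 FPKM in resistant libraries, against 0.549, 0.553 and 0.316 FPKM in sensitive libraries, with a log2 fold change of 1.43 (SE 0.110, adjusted p = 3.46e-05). DSC3, best known from stratified epithelia, was at 4.89, 5.51 and 5.21 FPKM in resistant libraries, against 0.628, 0.533 and 0.152 FPKM in sensitive libraries, with a log2 fold change of 2.12 (SE 0.151, adjusted p = 2.35e-05). DSG3, the desmoglein of the basal epidermis, was listed at 0 in every library. The 4 genes summed to 53.2 ± 8.35 FPKM in resistant and 4.80 ± 2.00 FPKM in sensitive libraries (SD, n = 3 each). DSG2 was 84.5% ± 1.63 of that sum in resistant and 81.1% ± 1.70 in sensitive libraries, so the level of the desmosomal cadherins differed between groups far more than their makeup. DSC3, DSC2, DSG3 and DSG2 lie in 1 cluster on chromosome 18, and CDH2, which did not pass, is the protein-coding gene next to DSC3.

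The promoter window of DSG2, the most abundant of the desmosomal cadherins, lies at chr18:31497927-31498226 on the plus strand of GRCh38.p14 in RefSeq, with the same motifs in capitals.
DSG2: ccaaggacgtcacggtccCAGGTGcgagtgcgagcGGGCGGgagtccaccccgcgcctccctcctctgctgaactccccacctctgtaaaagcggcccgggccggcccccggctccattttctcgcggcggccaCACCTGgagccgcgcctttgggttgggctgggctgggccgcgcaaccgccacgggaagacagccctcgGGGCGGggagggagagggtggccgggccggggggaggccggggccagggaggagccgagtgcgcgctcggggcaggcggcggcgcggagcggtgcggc
It holds 2 E-boxes, as CAGGTG and CACCTG, and 2 GC boxes.

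Plaque proteins join the desmosomal cadherins to keratin. PKP3, plakophilin-3, was at 14.99, 13.8 and 12.5 FPKM in resistant libraries, against 0.275, 0.255 and 0.176 FPKM in sensitive libraries, with a log2 fold change of 3.58 (SE 0.117, adjusted p = 8.46e-07). EVPL encodes envoplakin, a plakin of the cornified envelope that binds periplakin. It was at 6.04, 5.77 and 6.61 FPKM in resistant libraries and 0.00386, 0.0114 and 0 FPKM in sensitive libraries, with a log2 fold change of 2.83 (SE 0.0933, adjusted p = 8.65e-07). Its partner PPL, periplakin, was at 13.0, 13.8 and 14.4 FPKM in resistant libraries, against 5.70, 7.33 and 5.95 FPKM in sensitive libraries, with a log2 fold change of 1.01 (SE 0.129, adjusted p = 0.000411). The groups did not overlap for these 3 genes.

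JUP encodes plakoglobin, which binds both desmosomal and classical cadherins. It was at 16.9, 15.7 and 15 FPKM in resistant libraries, against 76.0, 82.1 and 74.6 FPKM in sensitive libraries, and fell by 2.22 on the log2 scale (SE 0.0991, adjusted p = 2.79e-06). PERP, a p53-induced membrane protein of desmosomes, was at 6.83, 7.35 and 7.08 FPKM in resistant libraries, against 47.3, 42.7 and 36.8 FPKM in sensitive libraries, and fell by 2.41 on the log2 scale (SE 0.123, adjusted p = 5e-06). The groups did not overlap for either gene. DSP encodes desmoplakin, the link to keratin, and was at 23.2, 25.0 and 25.6 FPKM in resistant libraries, against 51.4, 47.6 and 18.2 FPKM in sensitive libraries. Sensitive library 3 lay below every resistant library and the other 2 lay above all of them. The log2 fold change of DSP was -0.52 (SE 0.370, adjusted p = 0.252), and without sensitive library 3 it was -0.98 with an adjusted p of 6.16e-06, which passed (0.561 at most over 16 alternatives).

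The remaining plakophilins did not pass or were not tested. PKP2, the plakophilin of heart and simple epithelia, was at 11.6, 12.2 and 12.4 FPKM in resistant and 12.9, 13.0 and 11.1 FPKM in sensitive libraries, with a log2 fold change of -0.03 and a 95% interval of -0.29 to 0.24 (adjusted p = 0.84). PKP4, a relative found at several kinds of junction, was at 17.6 to 18.0 FPKM in resistant and 8.84 to 16.1 FPKM in sensitive libraries, with a log2 fold change of 0.44 (adjusted p = 0.113), and without sensitive library 3 it was 0.18 (adjusted p = 0.0493, and 0.22 at most over 16 alternatives). PKP1, the plakophilin of stratified epithelia, was listed at 0 in 5 libraries and at 0.00479 FPKM in sensitive library 3. Of the summed plakophilin level, PKP3 was 31.5% ± 2.13 in resistant and 0.905% ± 0.0333 in sensitive libraries (SD, n = 3 each). Some markers of keratinocytes moved with these desmosomal genes and others did not. Of 15 such markers, 10 were in the files and summed to 749, 695 and 630.0 FPKM in resistant libraries, against 15.4, 16.8 and 28.9 FPKM in sensitive libraries. Most of that was SFN, at 599 to 714 FPKM in resistant and 2.5 to 3.95 FPKM in sensitive libraries. KRT5 and TP63 reached at most 0.0681 and 0.0251 FPKM in resistant libraries and KRT14 was at 0 there. Of the other keratins of the list, KRT15, KRT16 and KRT17 were higher in resistant libraries, and KRT10 and KRT6B were not. KRT10 was at 11.3 to 14.2 FPKM in resistant and 11.8 to 24.1 FPKM in sensitive libraries, with overlap. KRT6B was listed at 0 in resistant libraries and reached at most 0.0112 FPKM in sensitive libraries. KRT16 was at 10.4 to 11.8 FPKM in resistant libraries and listed at 0 in sensitive libraries, and KRT17 was at 2.06 to 3.87 FPKM in resistant and 0 to 0.0329 FPKM in sensitive libraries. KRT15 was at 3.87 to 5.89 FPKM in resistant and 0.327 to 2.26 FPKM in sensitive libraries. The part of these markers in the desmosomal results was not tested.

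Sensitive library 3 deviated from libraries 1 and 2 by different amounts in different junction genes. Over 10746 tested genes with a transcript length in GENCODE release 29, the deviation fell with length (Spearman rho -0.39), with medians of 0.17 in the shortest quartile and -0.41 in the longest on the log2 scale. Over the 33 junction genes rho was -0.15, as a description of 1 library whose genes share its depth. The largest deviations were -1.79 for GJA1, -1.39 for DSP and -1.05 for CLDN12. The fold change between groups also leaned with length, with rho 0.19 over the 10746 genes and 0.33 over the 33 junction genes. Over the 10746 genes its median was -0.28 in the shortest and 0.30 in the longest quartile. The part of length in the fold changes of junction genes was not tested.

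**Figure D4:**
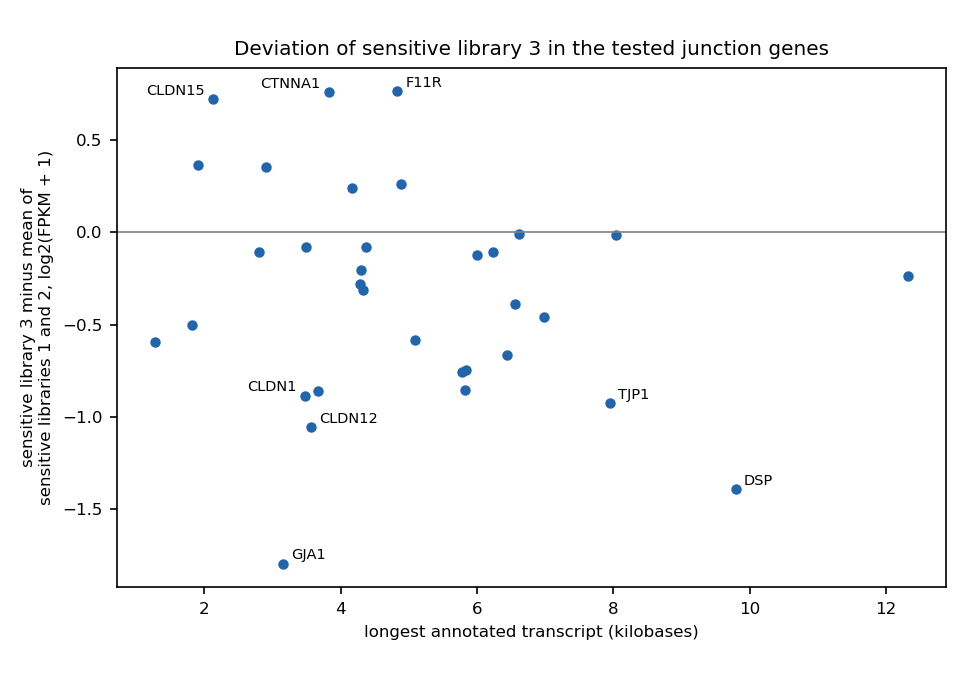
Log2(FPKM + 1) in sensitive library 3 minus the mean of sensitive libraries 1 and 2 (vertical axis) against the longest annotated transcript in kilobases (horizontal axis) for the 33 tested junction genes, with 1 point per gene. GJA1 and DSP lie lowest, and F11R, CTNNA1 and CLDN15 lie highest, at 0.76, 0.76 and 0.72.

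Both connexins that could be tested among the 3 chosen gap junction genes fell in resistant cells. GJB1 fell most of all the junction genes tested. GJC1, a connexin gene of a further list given below, rose. Of the 3 chosen genes, 2 were tested and both passed the filter through sensitive libraries alone, where 67.7% of all tested genes were called. GJB1 encodes connexin 32, the main connexin of hepatocytes. It was at 0.200, 0.832 and 0.140 FPKM in resistant libraries, against 94.2, 114.7 and 134.2 FPKM in sensitive libraries. Resistant library 2 was the highest of its group and still far below each sensitive library. The mean was 0.391 ± 0.383 FPKM in resistant and 114 ± 20.0 FPKM in sensitive libraries (SD, n = 3 each), and GJB1 fell by 6.39 on the log2 scale (SE 0.224, adjusted p = 1.04e-06). GJA1 encodes connexin 43, the most widespread connexin. It was at 0.447, 0.486 and 0.197 FPKM in resistant libraries, against 42.2, 37.0 and 10.7 FPKM in sensitive libraries, and fell by 4.29 on the log2 scale (SE 0.480, adjusted p = 0.00022). Its sensitive libraries were spread widely, with library 3 lowest, and without that library the log2 fold change was -4.89. GJB2, the connexin 26 gene, was at 0.527, 0.749 and 0.635 FPKM in resistant libraries and 2.14, 1.65 and 0.615 FPKM in sensitive libraries, with overlap, and was not tested. The 3 connexins summed to 1.40 ± 0.582 FPKM in resistant and 146 ± 7.41 FPKM in sensitive libraries (SD, n = 3 each), and the hepatocyte markers given above moved with them. Their part in the fall of GJB1 was not tested.

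The promoter windows of the 2 connexin genes that fell are shown, from chrX:71214989-71215288 for GJB1 and chr6:121435396-121435695 for GJA1, both on the plus strand of GRCh38.p14 in RefSeq, with the same motifs in capitals.
GJB1: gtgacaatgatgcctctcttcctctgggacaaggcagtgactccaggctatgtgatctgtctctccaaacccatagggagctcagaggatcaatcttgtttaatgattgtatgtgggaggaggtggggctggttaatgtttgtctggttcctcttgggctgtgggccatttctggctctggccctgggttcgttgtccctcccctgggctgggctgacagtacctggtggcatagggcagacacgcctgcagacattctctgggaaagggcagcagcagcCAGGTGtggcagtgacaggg
GJA1: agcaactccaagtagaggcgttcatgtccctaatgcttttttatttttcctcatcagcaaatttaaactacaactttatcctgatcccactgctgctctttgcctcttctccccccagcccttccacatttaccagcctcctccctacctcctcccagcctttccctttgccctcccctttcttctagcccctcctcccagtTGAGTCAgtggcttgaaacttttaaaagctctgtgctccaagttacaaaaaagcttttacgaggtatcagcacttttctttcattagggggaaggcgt
The GJB1 window holds an E-box as CAGGTG at 31, and the GJA1 window holds TGAGTCA at -48, each as the first base counted from the gene's start.

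Other genes of these junctions were taken from 4 further lists, with 67 genes in the files. Of these, 32 were tested, 15 rose, 8 fell and 9 did not pass. The called share was 71.9%, near the 67.7% of all tested genes, and 3 of the 32 passed the filter through resistant libraries alone, ARVCF and CLDN11 among them. The genes named are among the called ones with the largest changes in each list. Among 7 tested adherens genes 3 rose and 2 fell. PVR, a nectin-like adhesion receptor, ARVCF, a relative of p120-catenin, and VCL, which encodes vinculin, had log2 fold changes of 1.37, 0.76 and 0.41. AFDN, which encodes the nectin-binding scaffold afadin, and NECTIN2 fell by 1.34 and 0.71.

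Among 19 tested tight junction genes 8 rose and 6 fell. CLDN11, a claudin best known from myelin and the testis, was at 157, 149.97 and 141 FPKM in resistant libraries, against 0.123, 0.122 and 0.0539 FPKM in sensitive libraries. Its log2 fold change was 7.09 (SE 0.106, adjusted p = 9.14e-08), and it was 32.5% ± 2.64 of the 17 claudins in the files in resistant and 0.0863% ± 0.0179 in sensitive libraries (SD, n = 3 each). CLDN1 and CLDN11 together thus made up most claudin transcript in resistant cells. PARD6B, a partner of PARD3, and PATJ, a scaffold of the Crumbs complex, had log2 fold changes of 3.02 and 1.20. CRB3, the epithelial Crumbs protein, MAGI1, a scaffold, and CXADR, the coxsackievirus and adenovirus receptor, fell by 2.98, 2.38 and 2.26.

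Both tested genes of the desmosome list rose, and neither builds the desmosome itself. KLHL24, an adaptor of a ubiquitin ligase that acts on keratin, had a log2 fold change of 1.04, and SHISA5, a p53-induced membrane protein, had one of 0.82. Among 4 tested gap junction genes 2 rose and 2 did not pass. GJC1, which encodes connexin 45, was at 26.8, 28.3 and 24.1 FPKM in resistant libraries, against 5.07, 5.36 and 3.26 FPKM in sensitive libraries, with a log2 fold change of 2.32 (SE 0.178, adjusted p = 3.43e-05). The groups did not overlap for GJC1. Over all 14 connexin genes in the files the summed level was 54.8 ± 3.21 FPKM in resistant and 151 ± 7.86 FPKM in sensitive libraries (SD, n = 3 each), so the groups lay closer together in that sum than in the sum of GJB1, GJA1 and GJB2.

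Among 8 tested regulators of junction genes 3 rose and 4 fell, where 67.7% of all tested genes were called. Of the 8, 1 passed the filter through resistant libraries alone (ZEB2) and 2 through sensitive libraries alone, HNF4A among them. ZEB2, a repressor of CDH1, was at 1.01, 1.26 and 1.39 FPKM in resistant libraries, against 0.0980, 0.0484 and 0.117 FPKM in sensitive libraries, with a log2 fold change of 1.03 (SE 0.0889, adjusted p = 6.22e-05). Its relative ZEB1 had a log2 fold change of 0.59 (adjusted p = 0.026), which was lost in 5 of 15 alternatives (adjusted p = 0.0128 to 0.0883 over the 15), among them the one without resistant library 2 (adjusted p = 0.0562). GRHL1, an epithelial activator, had one of 0.54 (adjusted p = 0.0478), which was lost in 10 of 15 alternatives (adjusted p = 0.0287 to 0.138 over the 15), among them the one without resistant library 2 (adjusted p = 0.126). SNAI1, the Snail repressor, was at 3.22, 2.86 and 3.48 FPKM in resistant and 3.05, 2.71 and 3.48 FPKM in sensitive libraries, with a log2 fold change of 0.04 and a 95% interval of -0.26 to 0.34 (adjusted p = 0.792). HNF4A, a hepatocyte transcription factor that is also among the 21 hepatocyte markers, fell by 4.82, and ELF3, an epithelial ETS factor, fell by 2.87 on the log2 scale.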

How the data were processed

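RNA-seq of 3 resistant and 3 sensitive libraries was analysed, with groups and replicate numbers from the sample titles. The authors deposited 1 value per gene symbol and library, whose unit was taken from the values as FPKM; RPKM would look alike. Per the submitters' processing notes, cutadapt did the trimming and HISAT2 the alignment. What is not given in the sources used here is the versions, counter, build, annotation and strand, so reads of overlapping genes may be split between them. Read depth is not given. Low values lay on whole steps of a gene-specific size (within 0.02 of a step) for 7715 of 8704 genes under 1 FPKM. Many step sizes were tried for each gene, so some of these matches can arise by accident. The steps gave depths within 3.46% of each other. Only small differences in step between libraries were searched, so a large difference in depth could not have shown. No nonzero value was identical between libraries.

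Genes that reached 1 FPKM in at least 3 libraries were fitted with the limma-trend method of limma 3.58.1 (R 4.3.3) on log2(FPKM + 1), two-sided, with group as the only term, 4 residual and 2.75 prior degrees of freedom and Benjamini-Hochberg adjustment over all tested genes. The fit was tested on simulated data drawn with the spread of the resistant libraries, which leaves out the deviation of sensitive library 3. Tables and shares used pandas 2.3.3, scipy 1.17.1 and numpy 2.4.6 under Python 3.11.15, and figures used matplotlib 3.10.9. No fold of means is given where a group holds a 0, which can be a failed estimate. All 47 genes matched RefSeq by symbol, which gave neighbours, and 31 of them had a promoter window.

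The junction genes and all lists were chosen with earlier results of these data known. Values in every library are given for CDH1, CDH2, the gene with the highest mean of each junction type and up to 8 called genes of each type by size of change, and up to 3 called genes in each direction are named from each further list. Some genes that this rule picks are not reported here. Other values in every library were chosen for contrast after they were seen. CLDN5, CLDN8, CLDN10, MPP5, GJA4, GJA9, GJD2 and GRHL2 were on those lists and are not analysed here. Alternatives were a pseudocount of 0.1, a mean of at least 5 FPKM, no filter, scaling to the geometric mean sample, quantile normalization, rescaling without mitochondrial mRNAs, limma without the trend, robust limma-trend, the replicate number as a block, each library left out, and sensitive library 3 and resistant library 2 left out together.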

Additional observations from a re-analysis of the deposited data

How the results depend on the processing

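Of 23 called junction genes, 22 kept their call and direction in all of the 16 alternatives that tested them, and MARVELD2 was the exception. With no filter 16 junction genes were called higher and 14 lower, and with a mean of at least 5 FPKM 8 were called higher and 7 lower, since other genes were tested. On the further lists with regulators and proteases (21 higher and 14 lower), 13 were called higher with that mean. Leaving out 1 library gave 13 to 16 junction genes higher and 9 to 11 lower, and 17 to 23 higher and 13 to 16 lower on those lists. With sensitive library 3 and resistant library 2 both left out, 14 junction genes were higher and 11 lower. Same-numbered libraries did not deviate together (r = -0.42, 0.07 and -0.23). Whether the numbers pair the samples cannot be told from these values, since deviations from the mean of 3 libraries depend on one another. With the replicate block 13 junction genes were higher and 9 lower, and MARVELD2 did not pass (adjusted p = 0.103). The sign of PKP2, not called, turned to 0.049 after rescaling without mitochondrial mRNAs, which put the median of all genes at 0.15, and to values just above 0 without resistant library 1 (0.00022), sensitive library 1 (0.0027) or sensitive library 2 (0.011), while leaving out sensitive library 3 gave -0.095, the lowest of the values with 1 library left out. NECTIN3, not called, turned to -0.043 with both libraries left out. CTNNA1 passed after quantile normalization (0.60), after the mitochondrial rescaling (0.60) and without sensitive library 3. The cause was not tested. Depth does not show whether genes listed at 0 were absent.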

Other observations

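Genes of protease and ectodomain shedding, which trim junction proteins at the surface, were also measured. Of 10 on the list, 6 were tested, 3 rose and 2 fell, where 67.7% of all tested genes were called. SPINT1 passed the filter on low values through resistant libraries alone and HPN through sensitive libraries alone. SPINT2 and SPINT1 encode inhibitors of the matriptase and hepsin family of membrane proteases. SPINT2 was at 366, 349 and 373 FPKM in resistant libraries, against 53.8, 56.5 and 94.7 FPKM in sensitive libraries, with a log2 fold change of 2.44 (SE 0.215, adjusted p = 6.81e-05 by limma). SPINT1 was at 2.28, 2.19 and 1.94 FPKM in resistant libraries, against 0.0483, 0.135 and 0.0577 FPKM in sensitive libraries, with a log2 fold change of 1.54 (SE 0.0845, adjusted p = 7.11e-06). Both inhibitors were higher in every resistant library than in any sensitive one. HPN, which encodes hepsin, a protease of hepatocytes, was at 0.0576, 0.248 and 0.171 FPKM in resistant libraries, against 16.2, 14.1 and 21.2 FPKM in sensitive libraries, and fell by 3.95 on the log2 scale (SE 0.170, adjusted p = 2.43e-06). ADAM15, a membrane metalloprotease, had a log2 fold change of 0.89 (adjusted p = 0.00643). ADAM10, which sheds E-cadherin, fell by 1.14 (adjusted p = 0.0265), and it did not pass without any 1 library other than sensitive library 3 (adjusted p = 0.057 to 0.0927) or in 2 other alternatives, without a filter on low values and after rescaling without mitochondrial mRNAs.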
